A study of Mus musculus with 3 samples.

Results

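The histone and DNA modifying enzymes described here are 70 of the 22068 genes listed for differentiating C2C12 myoblasts. They were chosen by gene symbol alone, as the Hdac, Sirt, Kat, Kdm, Setd, Ezh, Suv39h, Suv420h, Ehmt, Prmt, Dnmt and Tet genes together with Carm1, Ep300 and Crebbp. The rule itself uses no expression value, although it was set with earlier results of these data known. Of these, 32 add an acetyl or methyl group (writers), 37 remove or oxidise one (erasers), and Dnmt3l, a cofactor of DNA methyltransferases without activity of its own, was placed on neither side.

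C2C12 is a mouse myoblast line that leaves the cell cycle and fuses into myotubes when serum is withdrawn. Polyadenylated RNA was sequenced from 3 lines stably transduced with lentivirus and selected with blasticidin. The first overexpressed the long non-coding RNA Linc-RAM from a CMV promoter, the second was the knockdown line and expressed a short hairpin against Linc-RAM from a U6 promoter, and the control line carried an empty vector. All lines had spent 12 h in medium with horse serum (differentiation medium). Which of the study's hairpins was used, and whether a line was 1 clone or a pool, is not given in the sources used here. The control carried no hairpin, so an effect of any hairpin and an effect of losing Linc-RAM cannot be told apart.

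Each condition had 1 library, so that no difference has a replicate check, and the control library is shared by both comparisons. Values are RPKM, the reads of a gene scaled by its length and by the read total of its library. The read totals worked out from the values were 2105513 for overexpression, 1878146 for knockdown and 5130481 for the control. Linc-RAM itself (2310015B20Rik) had 1.07 RPKM with overexpression, 0 with knockdown and 0 in the control, and does not check the labels. The myoblast markers Myod1, Myf5, Des, Cdh15 and Chrna1 were present in every library. They summed to 533 RPKM with overexpression, 209 with knockdown and 371 in the control, mostly from Des. Their ratios of knockdown to control were 0.584 for Myod1, 0.896 for Myf5, 0.499 for Des, 0.480 for Cdh15 and 1.15 for Chrna1. Among markers of other cells, the 3 endothelial genes summed to at most 0.144 RPKM and the 4 immune genes to at most 1.58 RPKM in any library. The 6 fibroblast and tenocyte genes summed to 38.8, 40.5 and 33.1 RPKM for overexpression, knockdown and control, mostly from Scx, with Tnmd, Thy1 and Lum at 0 in all libraries. Pdgfra had a ratio to the control of 0.791 with overexpression and 1.94 (95% interval 1.44 to 2.59) with knockdown. Scx had ratios of 1.21 and 1.13. The 8 neuronal and glial genes summed to 156, 30.3 and 113 RPKM in the same order, mostly from Tubb3 and Stmn2. Of the 4 compared, Tubb3 (ratio 3.53), Nefl (5.50) and Nefm (5.90) lay above the control with overexpression and Stmn2 below it (0.457). With knockdown all 4 lay below it, at 0.754, 0.0780, 0.431 and 0.116 in the same order. Nefl had 1 read there and Nefm 3. These sums and the muscle genes differed between the libraries along with the enzymes described below, and their part in those differences was not tested. In bulk RNA, fewer cells of a type and less RNA per cell cannot be told apart.

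Acetyltransferases loosen chromatin by acetylating histone tails and serve MyoD, the master regulator of myogenesis, as coactivators, whereas histone deacetylases and sirtuins take the acetyl groups off. Methyltransferases mark active or silent genes according to the residue they modify, and lysine demethylases reverse the marks. DNA methyltransferases methylate cytosines in DNA and TET dioxygenases oxidise the methyl group, the first step of its removal. In myoblasts, class IIa deacetylases hold MEF2, the partner of MyoD, in a repressed state until kinases of the CaMK and PKD families drive them out of the nucleus, and the polycomb methyltransferase Ezh2 silences muscle genes.

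Most of these enzymes were expressed at modest and similar levels in all libraries. A mean of at least 1 RPKM over the libraries, the level required here for a gene to be compared, was reached by 62 of the 70, which were 29 of the 32 writers and 33 of the 37 erasers, among 10172 genes in all. Mean levels of these 62 ran from 1.19 RPKM to 18.3 RPKM with a median of 5.84 RPKM, against a median of 6.14 RPKM for all genes compared. The 8 below that level were Dnmt3b, Dnmt3l, Hdac9, Kdm4d, Kdm5d, Prmt8, Setd4 and Tet1. Dnmt3l, the Y-linked H3K4 demethylase Kdm5d and the arginine methyltransferase Prmt8 were listed at 0 in every library. Kdm4d, an H3K9 demethylase, was listed at 0 in both the overexpression and the knockdown library and had 0.0732 RPKM, which is 1 read, in the control.

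At 2-fold, the criterion given in the study's methods, few of the enzymes passed. With overexpression against control 1 of the 62 was at least 2-fold higher (Sirt5, against 3.70% of all genes compared) and 0 were at least 2-fold lower (3.47% of all genes). With knockdown against control 0 were 2-fold higher (3.44% of all genes) and 3 were 2-fold lower (Dnmt3a, Hdac4 and Prmt7, against 4.19%). Between overexpression and knockdown directly, 0 were 2-fold higher with overexpression (6.08% of all genes) and 1 was 2-fold lower (Hdac7, against 5.09%). In both lines 47 of 62 (75.8%) lay within 1.5-fold of the control, against 65.2% of all genes compared. The enzymes had more reads per gene than genes in general, with medians of 53 reads with overexpression, 41 with knockdown and 117.5 in the control against 38, 33 and 91 for all genes compared, and the part of this in their smaller spread was not tested.

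A second reading used the reads behind each value. They were worked out at a gene length that gave whole reads in all libraries, near an annotated transcript length where one fitted, and the smallest fitting length served as the alternative. It gives the fewest reads and the widest intervals. The 95% Clopper-Pearson interval of each ratio covers counting error only, not the spread between cultures, and "rose" and "fell" are used below only where it left out 1. With overexpression, 6 members rose (Ezh1, Kat2b, Kdm1b, Prmt2, Setd8 and Sirt4) and 6 fell (Hdac7, Kdm3b, Kdm5a, Setd7, Tet2 and Tet3). These are near the shares among all genes compared, of which 9.78% rose and 8.83% fell. With knockdown, 2 rose (Hdac7 and Setd7, against 9.37% of all genes) and 6 fell (Crebbp, Dnmt3a, Hdac4, Kdm4b, Setd1a and Tet3, against 10.7%). Between overexpression and knockdown, 4 were higher with overexpression (Dnmt1, Kdm4b, Prmt2 and Setd8, against 10.0% of all genes) and 3 were lower (Hdac7, Setd2 and Setd7, against 8.41%). For 43 of the 62 (69.4%) the interval held 1 in all 3 comparisons. Hdac7, Setd7 and Tet3 had an interval that left out 1 in both lines against the control. For neither count was the share among all genes compared worked out, so neither sets the enzymes apart. Scaling each pair of libraries to the median of all genes or to equal upper quartiles ended the calls of Prmt2 with overexpression and of Crebbp and Setd1a with knockdown. Equal upper quartiles also ended those of Sirt4 with overexpression and of Prmt2 for overexpression over knockdown, and added Crebbp, Dnmt3a and Kdm2a to the members that fell with overexpression, which makes 9.

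**Figure D1:**
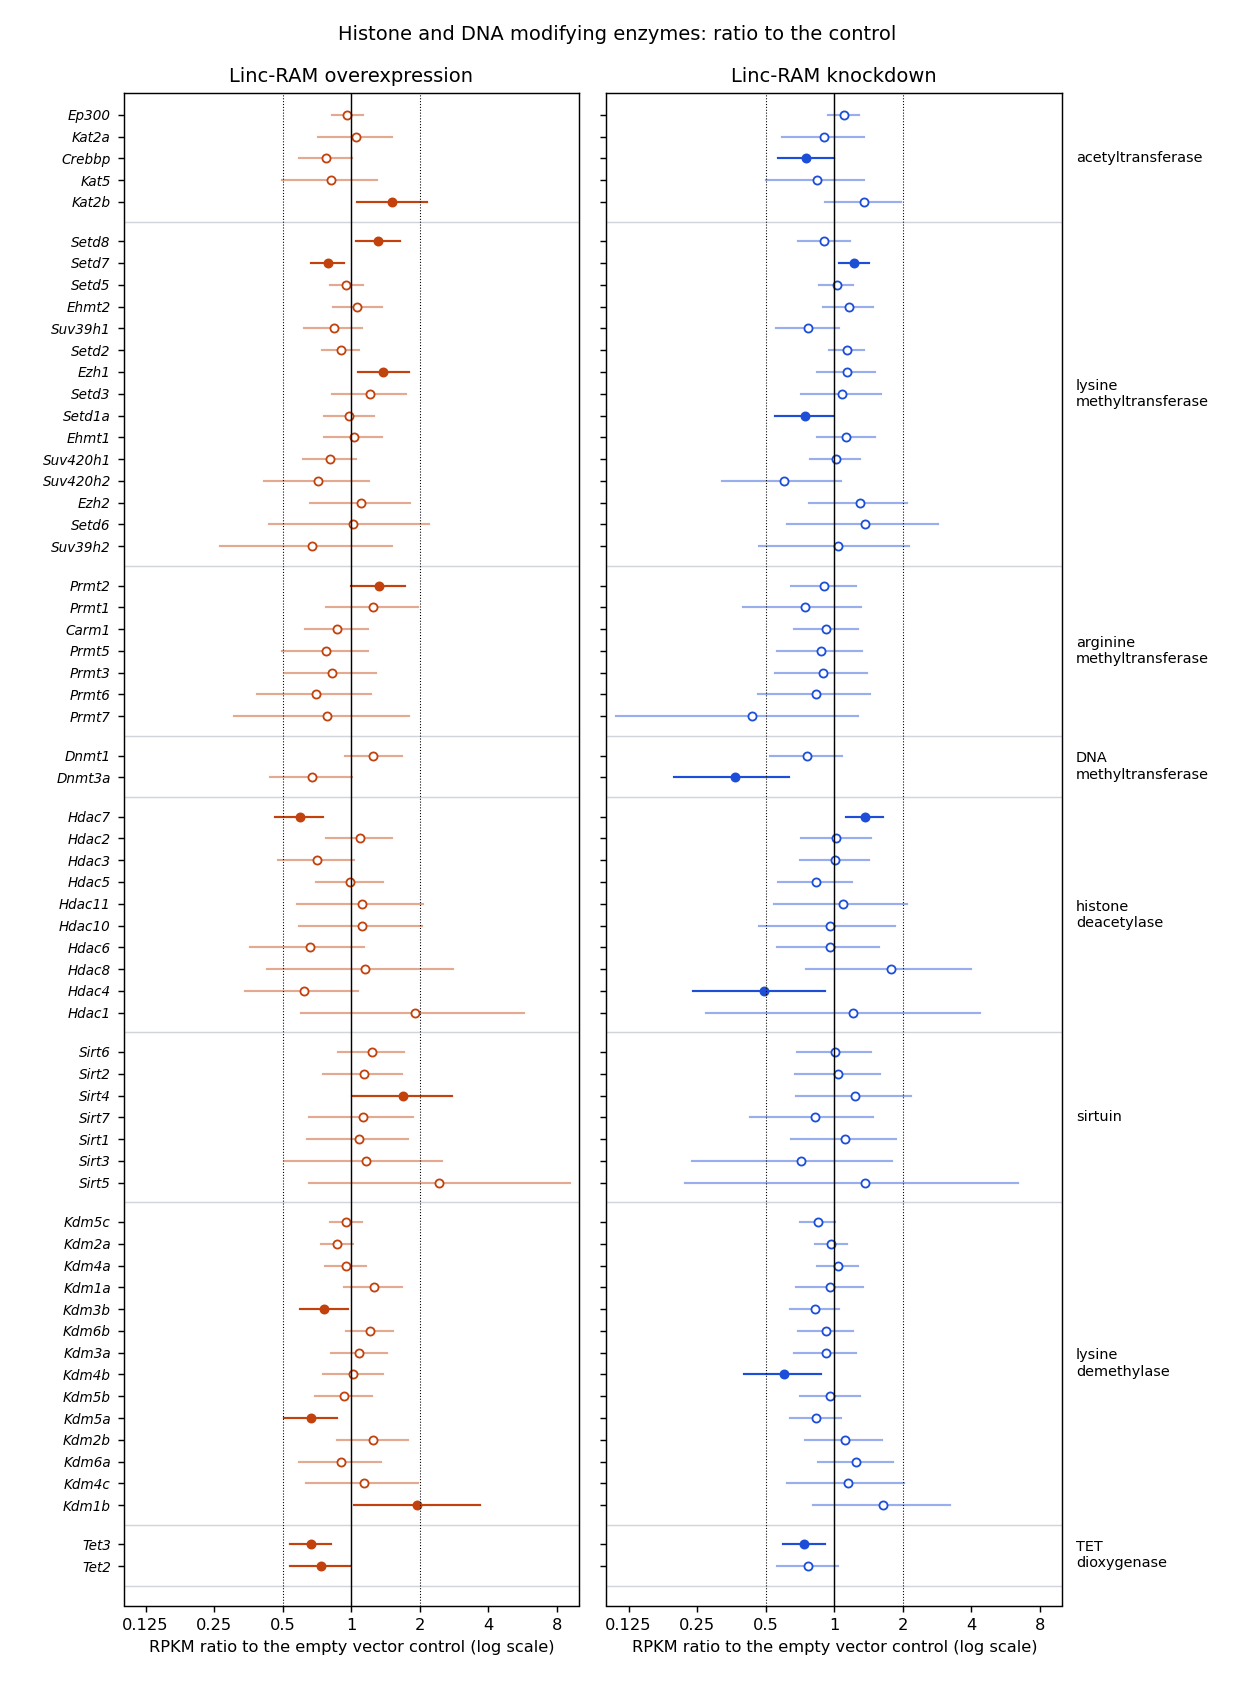
Ratio of RPKM to the empty vector control for each of the 62 enzymes with a mean of at least 1 RPKM, with Linc-RAM overexpression on the left and Linc-RAM knockdown on the right, grouped by class and ordered by mean level. Points are ratios on a log axis, lines are 95% intervals from counted reads, filled points have an interval that leaves out 1, and dotted lines mark 2-fold; Hdac7 and Setd7 lie left of 1 with overexpression and right of 1 with knockdown, and Tet3 lies left of 1 in both panels.

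Hdac7, a class IIa deacetylase that binds MEF2 and represses its targets, had the lowest ratio of the 10 Hdac genes compared with overexpression and moved the opposite way with knockdown. It had 8.33 RPKM with overexpression, 19.1 with knockdown and 14.0 in the control, from 87, 178 and 357 reads. The level was thus lowest in the overexpression library and highest in the knockdown library. The ratio to the control was 0.594 (95% interval 0.464 to 0.753) with overexpression and 1.36 (1.13 to 1.63) with knockdown, and overexpression over knockdown gave 0.436 (0.333 to 0.567). Hdac7 made up 16.0% of the summed RPKM of the 11 Hdac genes with overexpression, 29.8% with knockdown and 23.3% in the control. It lies on the reverse strand of chr15:97623095-97674933 (mm9).

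Setd7, a lysine methyltransferase that methylates histone H3 and several transcription factors and is known to act with MyoD in muscle differentiation, showed the same order. It had 12.1 RPKM (187 reads) with overexpression, 18.7 (259) with knockdown and 15.3 (578) in the control. The overexpression library was again lowest and the knockdown library highest, with smaller steps than for Hdac7. The ratios to the control were 0.788 (0.665 to 0.931) with overexpression and 1.22 (1.05 to 1.42) with knockdown, and overexpression over knockdown gave 0.644 (0.531 to 0.780). Setd7 lies on the reverse strand of chr3:51319241-51364800 (mm9). Both genes were singled out because their interval left out 1 in both lines, so their opposite directions are a description.

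The sequences upstream of these 2 genes are shown because they moved together and because MyoD, whose mRNA differed between the libraries, binds E-boxes. Myod1 had 34.1 RPKM with overexpression, 9.76 with knockdown and 16.7 in the control. The 250 bases before the start of each gene, from RefSeq on GRCm38.p6 and both from the reverse strand, were searched for CAGCTG, an E-box form that MyoD prefers, and for CANNTG, the general E-box, of which CAGCTG is 1 case. Both read the same on the 2 strands. CAGCTG is in capitals.
Hdac7 (chr15:97831496-97831745): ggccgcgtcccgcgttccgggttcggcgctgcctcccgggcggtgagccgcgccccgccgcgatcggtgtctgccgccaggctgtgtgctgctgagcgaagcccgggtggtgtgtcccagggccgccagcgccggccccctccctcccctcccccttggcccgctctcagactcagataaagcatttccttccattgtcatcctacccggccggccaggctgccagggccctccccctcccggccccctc
Setd7 (chr3:51560824-51561073): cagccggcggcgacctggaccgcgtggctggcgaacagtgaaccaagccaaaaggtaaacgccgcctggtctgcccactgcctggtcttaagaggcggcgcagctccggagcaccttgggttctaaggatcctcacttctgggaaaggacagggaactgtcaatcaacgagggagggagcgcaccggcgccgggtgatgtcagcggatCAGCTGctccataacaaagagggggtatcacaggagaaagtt
The Setd7 stretch holds 1 CAGCTG and no other CANNTG, and the Hdac7 stretch holds neither. Of the 61 members with an entry, 9 (14.75%) hold CAGCTG against 12.77% of 27025 promoters, and 52.5% against 66.0% hold CANNTG. The members' stretches had a median GC content of 59.6% against 52% for all. Such a match is a run of letters and not a binding site. The RefSeq starts were not matched to the mm9 gene bounds given above, so a stretch can lie inside those bounds.

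None of the other class IIa deacetylases had the order of Hdac7 over the libraries. With overexpression, however, the ratio of Hdac4 was close to the 0.594 of Hdac7. Hdac4, which represses MEF2 in the same way, had 2.05 RPKM with overexpression, 1.62 with knockdown and 3.32 in the control, from 17, 12 and 67 reads. It was highest in the control and fell with knockdown to a ratio of 0.489 (0.241 to 0.912), while with overexpression the ratio was 0.618 (0.340 to 1.06). Hdac5, another member of this class, had 6.50, 5.47 and 6.57 RPKM in overexpression, knockdown and control cells, with intervals that held 1. Hdac9, whose mean was under 1 RPKM, had 1.5 RPKM with overexpression, 0.361 with knockdown and 0.792 in the control, from 14, 3 and 18 reads. Its level was highest with overexpression and lowest with knockdown, and overexpression over knockdown gave 4.16 with the wide interval of 1.16 to 22.6. Summed without Hdac7, these 3 genes had 10.1 RPKM with overexpression, 7.45 with knockdown and 10.7 in the control. That sum gave a ratio of 0.698 (0.518 to 0.941) for knockdown over control and 0.942 (0.731 to 1.21) for overexpression over control.

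Regulators and targets of the MEF2 and class IIa pathway gave a further 24 genes, of which 17 were compared. With overexpression 4 of them rose and 1 fell, and with knockdown 2 rose and 3 fell. Among all genes compared, 9.78% rose and 8.83% fell with overexpression, and 9.37% rose and 10.7% fell with knockdown. The list had median log2 ratios of 0.12 with overexpression and -0.05 with knockdown, against 0.00 and -0.01 for all genes compared. Myog, the muscle regulator induced at the onset of differentiation, had 22.1 RPKM with overexpression, 3.60 with knockdown and 3.95 in the control, and rose with overexpression to a ratio of 5.60 (3.60 to 8.91). The kinase genes differed from each other, in that Sik1, a kinase of class IIa deacetylases, rose with overexpression (1.63, 1.13 to 2.34) and Prkd3, the protein kinase D gene with the highest level, rose with knockdown (1.39, 1.18 to 1.63). Mef2a and Mef2d, the MEF2 genes compared, had intervals that held 1 in all comparisons. Nr4a1, a nuclear receptor gene that Hdac7 is known to repress in thymocytes, fell with overexpression, where it had 0.384 RPKM from 2 reads, against 2.2 RPKM in the control, a ratio of 0.174 (0.0201 to 0.690). Of the 14-3-3 proteins that hold phosphorylated class IIa deacetylases in the cytoplasm, 4 were listed and did not move alike. Ywhag fell with knockdown to 53.5 RPKM, against 95.1 in the control, and had 103 RPKM with overexpression. Ywhaz rose in both lines (1.23, 1.14 to 1.33 with overexpression and 1.24, 1.14 to 1.34 with knockdown), Ywhae fell with knockdown (0.896, 0.820 to 0.977), a call that ended with reads at the smallest fitting length, and the intervals of Ywhab held 1.

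The summed deacetylase mRNA followed Hdac7. The 11 Hdac genes summed to 52.1 RPKM with overexpression, 64.1 with knockdown and 60.2 in the control. The ratio to the control was 0.865 (0.756 to 0.989) with overexpression and 1.07 (0.938 to 1.21) with knockdown. Without Hdac7 the ratio with overexpression was 0.947 (0.810 to 1.11), an interval that held 1. Class I enzymes, the ubiquitous deacetylases of the Sin3, NuRD and CoREST complexes, summed to 25.7 RPKM with overexpression, 29.2 with knockdown and 27.1 in the control. Hdac2, the most abundant of them, had 13, 12.2 and 12 RPKM in overexpression, knockdown and control cells, with intervals that held 1.

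Hdac1, a class I deacetylase known to bind MyoD, was listed at only 1.69 RPKM with overexpression, 1.08 with knockdown and 0.890 in the control, from 7, 4 and 9 reads. Its values are uncertain because mm9 holds a near-identical copy without introns, annotated as Gm10093 and with no row of its own in the files. Of the 2038 bases of the Hdac1-001 transcript on chromosome 4, 1992 matched the copy at chr17:78890879-78892881 (forward strand) with 99.25% identity, and 73.8% of all 50-base windows were the same in both. A stretch of 90 coding bases, positions 497 to 586 of the transcript and chr17:78891334-78891423 of the copy, is shown to make clear how few bases tell the 2 apart. It had the most differences among the stretches searched, which were those with identical ends and few differences. The 5 differing bases are in capitals.
Hdac1: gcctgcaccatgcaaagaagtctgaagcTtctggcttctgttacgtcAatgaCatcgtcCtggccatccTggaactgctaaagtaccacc
Copy: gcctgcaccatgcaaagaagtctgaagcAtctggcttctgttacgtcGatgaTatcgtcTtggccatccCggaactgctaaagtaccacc
How reads that map to both places were counted is not given in the sources used here, and the part of the copy in the low Hdac1 values was not tested. Copies of at least 1000 bases at 90% identity or more were found for 7 of the 70 members, the others being Kat2b, Kdm2b, Prmt1, Setd3, Setd6 and Setd8. Of these, Kdm2b had 38.7% and Setd3 37.5% of 50-base windows in common with a copy, and the remaining 4 had at most 11.8%.

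The 7 sirtuins, NAD-dependent deacylases of the nucleus, cytoplasm and mitochondria, all lay above the control with overexpression, by a median log2 ratio of 0.22. With knockdown 5 of 7 lay above it, with a median of 0.06. Of all genes with a ratio, 5125 of 10147 lay above the control with overexpression and 4920 of 10140 with knockdown. Only Sirt4, a mitochondrial sirtuin, rose by itself, a call that ended when upper quartiles were made equal. It had 7.66 RPKM with overexpression, 5.63 with knockdown and 4.55 in the control (29, 19 and 42 reads), a ratio of 1.68 (1.01 to 2.77) with overexpression. Sirt5, another mitochondrial member and the only enzyme 2-fold higher, rested on 6 reads with overexpression, 3 with knockdown and 6 in the control, and its ratio of 2.44 had an interval of 0.651 to 9.11. Sirt1, the nuclear sirtuin known to restrain MyoD targets, had 2.92, 3.0 and 2.69 RPKM in overexpression, knockdown and control cells. Sirt6 and Sirt2, the most abundant, had ratios of 1.23 (0.875 to 1.71) and 1.13 (0.753 to 1.67) with overexpression. The class summed to 44.8 RPKM with overexpression, 35.9 with knockdown and 35.6 in the control. That sum rose with overexpression, at a ratio of 1.26 (1.05 to 1.51), which became 1.2 (0.985 to 1.45) without Sirt4.

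**Figure D2:**
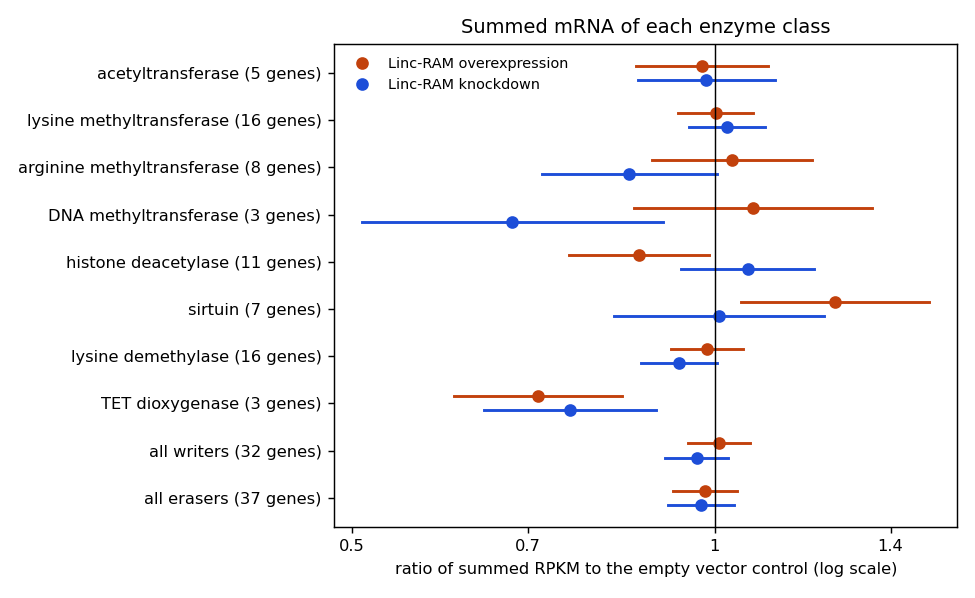
Ratio of the summed RPKM of each enzyme class to that of the empty vector control, for Linc-RAM overexpression and Linc-RAM knockdown, on a log axis with 95% intervals from counted reads. The TET sum lies below 1 in both lines (0.713 and 0.758), the DNA methyltransferase sum only with knockdown (0.679), and the sums of all writers and of all erasers lie within 4% of 1.

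Tet3 and the summed TET dioxygenase mRNA were lower in both lines, whereas Tet1 was not. Tet3, the most abundant, had 5.18 RPKM with overexpression, 5.76 with knockdown and 7.81 in the control, from 119, 118 and 437 reads. Both lines lay below the control and close to each other. The ratios to the control were 0.664 (0.537 to 0.814) with overexpression and 0.738 (0.597 to 0.906) with knockdown, and overexpression over knockdown was 0.900 (0.691 to 1.17). Tet2 had 3.05, 3.19 and 4.16 RPKM in overexpression, knockdown and control cells, and fell with overexpression (0.733, 0.539 to 0.986), while with knockdown its interval just held 1 (0.767, 0.558 to 1.04). Tet1, which was under the level required, had 0.577, 0.419 and 0.390 RPKM and lay above the control in both lines, with intervals that held 1. The 3 genes summed to 8.81 RPKM with overexpression, 9.37 with knockdown and 12.4 in the control, ratios of 0.713 (0.607 to 0.837) and 0.758 (0.643 to 0.893). Because both lines share the control library, a high value in that 1 library would lower both ratios, and this cannot be told apart from a change in both lines.

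Of the DNA methyltransferases, Dnmt1 differed between the lines, whereas Dnmt3a lay below the control in both. Dnmt1, which copies methylation onto newly replicated DNA, had 5.73 RPKM with overexpression, 3.46 with knockdown and 4.58 in the control (76, 41 and 148 reads). Each line on its own had an interval that held 1, and overexpression over knockdown gave 1.65 (1.12 to 2.48). Dnmt3a, a de novo methyltransferase, had 1.49 RPKM with overexpression, 0.811 with knockdown and 2.22 in the control (31, 15 and 112 reads). It was highest in the control and fell with knockdown to a ratio of 0.366 (0.198 to 0.630), the lowest ratio among the 62 enzymes in that line. With overexpression its ratio was 0.674 (0.438 to 1.01), and it fell there when upper quartiles were made equal. Overexpression over knockdown gave 1.84 for Dnmt3a, with an interval that held 1 (0.966 to 3.67). Dnmt3b, the other de novo enzyme, was at 0.330, 0.493 and 0.225 RPKM in overexpression, knockdown and control cells, from 3, 4 and 5 reads. The 3 genes summed to 7.55 RPKM with overexpression, 4.77 with knockdown and 7.02 in the control. The sum with knockdown was 0.679 of the control (0.510 to 0.905), and with overexpression it was 1.08 of the control (0.857 to 1.35). Divided by the TET sum, it came to 0.857 (0.676 to 1.09) with overexpression, 0.509 (0.378 to 0.685) with knockdown and 0.568 (0.491 to 0.656) in the control.

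Genes of the cell cycle and DNA replication were read beside Dnmt1 because its mRNA is known to follow S phase. Of 20 listed, 19 were compared, and with knockdown 5 fell (Pcna, Mcm3, Mcm4, Mcm5 and Mcm6) and 1 rose (Cdc20). With overexpression 6 rose (Mcm4, Mcm7, Ccnb1, Cdk1, Rrm2 and Cdc20) and Mki67 fell. Among all genes compared 9.37% rose and 10.7% fell with knockdown, and 9.78% rose and 8.83% fell with overexpression. With reads at the smallest fitting length the calls of Cdc20 in both lines, of Mcm7 with overexpression and of Pcna with knockdown ended. Mcm5, a subunit of the replicative helicase, had 5.97 RPKM with overexpression, 3.58 with knockdown and 7.29 in the control, a ratio of 0.491 (0.30 to 0.769) with knockdown. Median log2 ratios over the 19 genes were 0.19 with overexpression and 0.00 with knockdown. Their part in the Dnmt1 values was not tested.

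**Figure D3:**
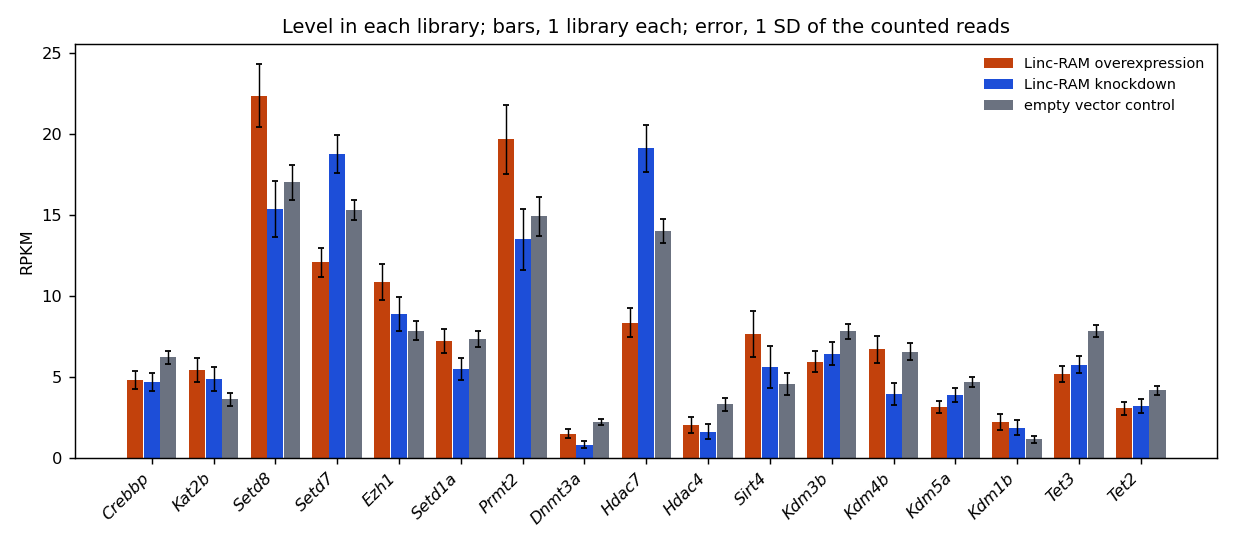
RPKM of the 17 enzymes whose ratio to the control had an interval that left out 1 in at least 1 line, in the Linc-RAM overexpression, Linc-RAM knockdown and empty vector libraries (left to right in each group). Each bar is 1 library and error bars are 1 SD of the counted reads; Setd8, Prmt2 and Hdac7 are the tallest, and Hdac7 reaches 8.33, 19.1 and 14.0 RPKM.

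Among the 5 acetyltransferases compared, 1 rose with overexpression and 1 fell with knockdown. Ep300, the p300 coactivator of MyoD, had 12.2 RPKM with overexpression, 14.0 with knockdown and 12.7 in the control, and its intervals held 1 in every comparison. Its relative Crebbp had 4.81 RPKM with overexpression, 4.68 with knockdown and 6.21 in the control, and fell with knockdown (0.754, 0.565 to 0.995), a call that ended under both other scalings of the libraries. Kat2b, the PCAF enzyme that acetylates MyoD, had 5.45, 4.86 and 3.60 RPKM in overexpression, knockdown and control cells. Both lines lay above the control, and it rose with overexpression (1.51, 1.06 to 2.15), while its interval with knockdown was 0.914 to 1.97. The close paralogue Kat2a had 6.70, 5.76 and 6.39 RPKM. Acetyltransferases summed to 0.350 of the Hdac and sirtuin sum with overexpression, 0.341 with knockdown and 0.362 in the control, with intervals that overlap.

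Of the 15 lysine methyltransferases compared, the H4K20 monomethyltransferase Setd8, which is needed for cell cycle progression, was the most abundant. It had 22.4 RPKM with overexpression, 15.4 with knockdown and 17 in the control (129, 79 and 239 reads), and rose with overexpression (1.32, 1.05 to 1.64). Ezh1, the polycomb H3K27 methyltransferase of cells that no longer divide, had 10.9, 8.89 and 7.85 RPKM in overexpression, knockdown and control cells, and rose with overexpression (1.38, 1.07 to 1.79). Ezh2, its counterpart in dividing cells, had 4.45, 5.19 and 4.02 RPKM, and its intervals held 1. The quotient of Ezh1 to Ezh2 was 2.44 (1.57 to 3.79) with overexpression, 1.71 (1.09 to 2.69) with knockdown and 1.95 (1.44 to 2.65) in the control, so that the intervals overlapped. Suv39h1, the H3K9 methyltransferase of heterochromatin, known to keep MyoD targets silent, had 9.91, 9.06 and 11.8 RPKM, with intervals that held 1. Together with Suv39h2 and the euchromatic enzymes Ehmt1 and Ehmt2 it summed to 28.4 RPKM with overexpression, 29.6 with knockdown and 29.9 in the control, so that H3K9 methyltransferase mRNA differed by less than counting error. The H4K20 methyltransferases, Setd8 with Suv420h1 and Suv420h2, summed to 30.6, 24.0 and 27.9 RPKM in overexpression, knockdown and control cells, and overexpression over knockdown gave 1.28 (1.03 to 1.59). Setd1a, which methylates H3K4, fell with knockdown to 5.48 RPKM, against 7.36 RPKM in the control (0.744, 0.551 to 0.991), but 51.9% of its exonic bases in GENCODE overlap Hsd3b7 on the same strand, so that reads of the pair may be split or shared, and the call ended under both other scalings. Setd2, the methyltransferase of transcribed gene bodies, had 8.87 RPKM with overexpression and 11.2 with knockdown, a ratio of 0.791 (0.633 to 0.986), a call that ended with reads at the smallest fitting length.

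The 7 arginine methyltransferases compared all lay below the control with knockdown, by a median log2 ratio of -0.20, although the interval of each held 1. Of all genes with a ratio, 5220 of 10140 lay below the control with knockdown. Prmt7 was at least 2-fold lower there, at 0.945 RPKM from 4 reads, against 2.16 RPKM from 25 reads in the control (0.437, 0.111 to 1.27). Prmt2, the most abundant, had 19.7 RPKM with overexpression, 13.5 with knockdown and 14.9 in the control, and rose with overexpression at a ratio of 1.32, with a lower bound that reached 1 on rounding and fell below 1 under both other scalings. Prmt1, which makes most asymmetric dimethylarginine, had 11.2, 6.70 and 9.04 RPKM in overexpression, knockdown and control cells. Carm1 and Prmt5, both known to act at muscle promoters, had ratios to the control of 0.869 and 0.778 with overexpression and 0.922 and 0.872 with knockdown, with intervals that held 1. The 8 genes summed to 53.3 RPKM with overexpression, 43.8 with knockdown and 51.6 in the control. The ratio of that sum was 0.849 (0.718 to 1.01) with knockdown.

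Among the 14 lysine demethylases compared, those for H3K4 moved in different directions. Kdm5c, the most abundant, had 16.0 RPKM with overexpression, 14.4 with knockdown and 16.9 in the control, with intervals that held 1. Kdm5a, a partner of the retinoblastoma protein, had 3.12, 3.88 and 4.69 RPKM, and fell with overexpression (0.665, 0.505 to 0.865). Kdm1b, a flavin-dependent H3K4 demethylase, had 2.22, 1.87 and 1.14 RPKM in overexpression, knockdown and control cells (20, 15 and 25 reads), and rose with overexpression (1.95, 1.03 to 3.66). Both lines lay above the control for Kdm1b and below it for Kdm5a. Kdm1a (LSD1), the other flavin-dependent enzyme and known to be needed for Myod1 expression, had 11.5, 8.83 and 9.18 RPKM, with intervals that held 1. As a group the 6 H3K4 demethylases summed to 37.9, 34.2 and 37.4 RPKM for overexpression, knockdown and control, ratios of 1.01 and 0.914.

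The H3K9 demethylases held the remaining falls of the class. Kdm4b had 6.70 RPKM with overexpression, 3.93 with knockdown and 6.55 in the control (65, 34 and 155 reads), and was low in the knockdown library alone (0.599, 0.401 to 0.873). Overexpression over knockdown gave 1.71 (1.11 to 2.66). Kdm3b had 5.94, 6.44 and 7.81 RPKM in the same order and fell with overexpression (0.761, 0.593 to 0.969). Kdm2a, a demethylase that binds CpG islands, had 13.4, 15 and 15.5 RPKM, with intervals that held 1. The H3K27 demethylases Kdm6a and Kdm6b together had 10.6 RPKM with overexpression, 10.0 with knockdown and 9.68 in the control. The H3K27 methyltransferases Ezh1 and Ezh2 together had 15.3, 14.1 and 11.9 RPKM, a ratio of 1.29 (1.03 to 1.62) with overexpression and 1.19 (0.928 to 1.51) with knockdown.

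Set against each other, the sums of writers and erasers stood in ratios that differed by less than counting error between the 3 libraries. All 32 writers summed to 223 RPKM with overexpression, 213 with knockdown and 221 in the control, and all 37 erasers to 206, 205 and 210 RPKM in the same order. Writers over erasers came to 1.08 (1.0 to 1.16) with overexpression, 1.04 (0.966 to 1.12) with knockdown and 1.05 (1.0 to 1.10) in the control. Gene by gene, the median log2 ratio of the 29 writers was -0.07 with overexpression and -0.14 with knockdown, and that of the 33 erasers was 0.12 with overexpression and -0.05 with knockdown. For overexpression over knockdown the medians were -0.04 for writers and 0.12 for erasers. The writers' median with knockdown turned to 0.042 without the arginine methyltransferases, and the erasers' median with overexpression came to 0.0083 at a mean of at least 5 RPKM. Without enzymes classed as acting on other substrates, the medians with overexpression were -0.16 for writers and 0.07 for erasers. The sums above include those enzymes. All genes compared had medians of 0.00, -0.01 and 0.02 in these comparisons. Of the 62 enzymes, 19 lay above the control in both lines (30.6%, against 29.6% of all genes compared) and 21 below it in both (33.9%, against 30.7%). A further 10 (16.1%, against 18.9% of all genes) lay below it with overexpression and above it with knockdown, the order of Hdac7 and Setd7. The reverse held for 12 (19.4%, against 20.9%).

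Among the members, gene length went with the direction of the change in the overexpression line, in length ranges chosen after the values were seen. Of the 6 members that fell there, 5 were longer than 6000 nt (Kdm3b, Kdm5a, Setd7, Tet2 and Tet3, from 7112 nt to 10969 nt), whereas Hdac7 was at 4960 nt and the 6 that rose lay between 1798 nt and 4708 nt. Among all members over 6000 nt, 14 of 16 were below the control with overexpression, with a median log2 ratio of -0.26, against -0.04 for all 1132 genes of that length. Among members of up to 2000 nt, 9 of 9 were above it, with a median of 0.22 against 0.04 for 2995 genes. Of these 9, 5 were sirtuins. The shares of all genes of these lengths above or below the control were not worked out, so the counts do not set the enzymes apart. With knockdown the members over 6000 nt had a median of -0.18, against 0.04 for all genes of that length, and those up to 2000 nt 0.28 against -0.07. Length is that of the gene model behind the RPKM as worked out from the values, and its part in these ratios was not tested.

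**Figure D4:**
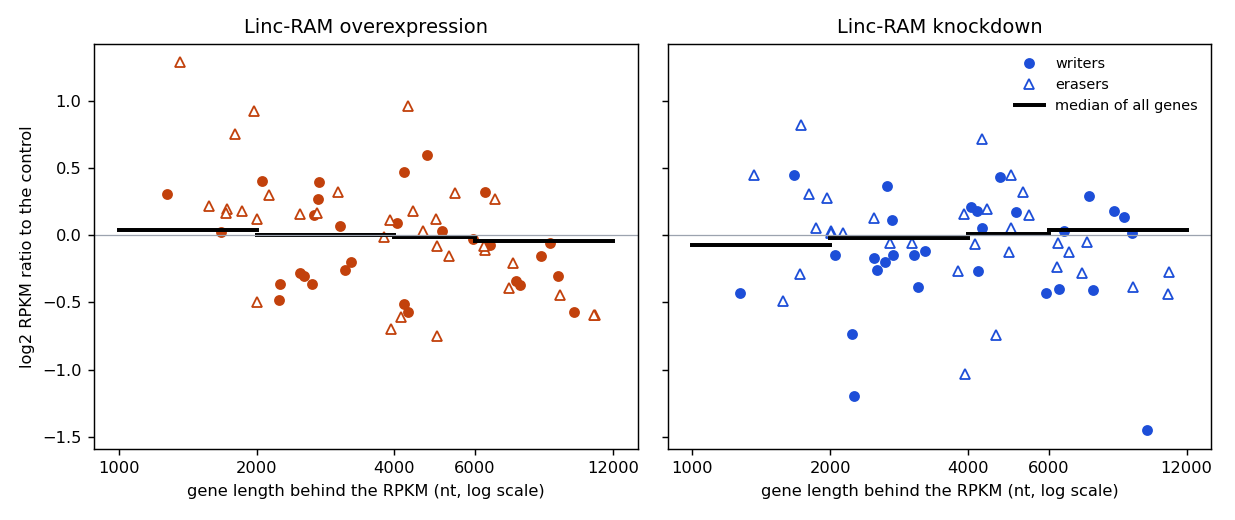
Log2 ratio of RPKM to the empty vector control against the length behind each RPKM (log axis, nt) for 29 writers (filled circles) and 33 erasers (open triangles), with Linc-RAM overexpression on the left and Linc-RAM knockdown on the right. Black bars are medians of all genes compared in each length range. With overexpression 14 of the 16 members over 6000 nt lie below 0 and all 9 members of up to 2000 nt lie above 0. The matching shares of all genes were not worked out.

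Genes outside the symbol rule that carry out the same reactions or are linked to them were read from lists. Those given with values were singled out after the values were seen. Of 28 further writers compared, 0 rose and 6 fell with overexpression (Mll1, Mll5, Smyd5, Ash1l, Ncoa2 and Taf1), and with knockdown 4 rose (Mll1, Mll3, Smyd4 and Prdm9) and 2 fell (Smyd5 and Myst2). For these and the lists that follow, the shares among all genes compared were 9.78% risen and 8.83% fallen with overexpression and 9.37% risen and 10.7% fallen with knockdown. With reads at the smallest fitting length the call of Ash1l ended, and with upper quartiles made equal Mll5 and Clock joined those that rose with knockdown, which makes 6. Mll1, an H3K4 methyltransferase of the trithorax group, had 6.04 RPKM with overexpression, 10.2 with knockdown and 8.37 in the control. It was thus lowest with overexpression (0.721, 0.615 to 0.843) and highest with knockdown (1.22, 1.07 to 1.4), in the order seen for Hdac7 and Setd7. Prdm9, an H3K4 methyltransferase known from meiosis, had 2.75, 5.54 and 1.75 RPKM, and with knockdown its ratio was 3.17 (1.91 to 5.30). Median log2 ratios of the 28 were -0.16 with overexpression and 0.02 with knockdown. Smyd1, the muscle-restricted member of the Smyd family, had 1.70 RPKM with overexpression, 0 with knockdown and 0.174 in the control, a mean below the level required.

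The list of further erasers also held genes that are only linked to DNA demethylation, such as Apobec1, Smug1 and Gadd45g, and the hydroxylase Hif1an. Of its 16 genes compared, 2 rose (Jmjd1c and Hr) and 1 fell (2410016O06Rik) with overexpression. With knockdown 3 rose (Jhdm1d, Jmjd1c and Alkbh1) and 3 fell (Phf2, Jmjd6 and Gadd45g). The call of Phf2 ended under both other scalings and that of Alkbh1 with reads at the smallest fitting length, and Jmjd6 also fell with overexpression when upper quartiles were made equal. Jmjd1c, a relative of the H3K9 demethylases Kdm3a and Kdm3b, had 8.27 RPKM with overexpression, 7.94 with knockdown and 6.19 in the control, and so was higher in both lines. Gadd45g, a growth arrest gene also linked to DNA demethylation, had 25.9 RPKM with overexpression, 13.3 with knockdown and 31.9 in the control, a ratio of 0.417 (0.267 to 0.627) with knockdown. Median log2 ratios of the 16 were -0.13 with overexpression and 0.10 with knockdown.

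Partners that the enzymes need for their complexes were also read. Of 39 compared, 2 rose (Rbbp4 and Gatad2a) and 7 fell (Rbbp7, Ncor1, Chd3, Uhrf2, Men1, Tada2b and Brpf3) with overexpression, and with knockdown 3 rose (Jarid2, Rbbp4 and Uhrf2), while those that fell included Men1 and Trrap, the call of Trrap ending when upper quartiles were made equal. Uhrf2, a reader of modified cytosine, had 8.05 RPKM with overexpression, 18.4 with knockdown and 13.4 in the control (60, 122 and 244 reads). Its ratios of 0.599 (0.444 to 0.798) and 1.37 (1.09 to 1.70) to the control again had opposite directions in the 2 lines, although with reads at the smallest fitting length the interval with knockdown held 1. Men1, the menin subunit of Mll complexes, was lower in both lines, at 14.8 RPKM with overexpression and 12.1 with knockdown, against 20.6 in the control. Uhrf1, which brings Dnmt1 to replicated DNA, had 11.6, 10.5 and 12.4 RPKM in overexpression, knockdown and control cells, with intervals that held 1. Median log2 ratios of the 39 were -0.08 with overexpression and -0.14 with knockdown.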

How the data were processed

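For each of 3 libraries the authors aligned reads to the mm9 build with TopHat, whose version is 1.4.1 according to the submitters' notes, and deposited RPKM per gene, made with DEGSeq. Annotation, handling of reads with several hits and read totals: not given in the sources used here. Ratios used the deposited RPKM without a pseudocount, for genes of a mean of at least 1 RPKM. A gene at 0 in 1 library of a pair was counted as past the fold and given no ratio.

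Read totals were worked out as the smallest that turned the values of weakly expressed genes into whole reads at GENCODE vM1 transcript lengths. Reads per gene were taken at an annotated length (8 of 62 members), at a fitting length within 2% of one (37) or at the smallest fitting length (17), and are estimates. A length fitted if reads were whole within a share of 1e-05 of the read number or within 0.0001 reads, whichever was larger. Ratios have Clopper-Pearson 95% intervals, and sums have 95% intervals from the counting error of their members. With 1 library per condition no p-value is given. Recovery of totals and reads and the 2-fold ratios were tested on simulated data. Intervals of ratios were tested there on the simulated reads and not on recovered ones. Sums, copies and promoters were not tested in this way. Transcripts of members were aligned to mm9 with minimap2 (2.31-r1302).

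Members and lists were chosen with earlier results of these data known. The groupings by mark, the sums without 1 gene, the length ranges, the search for copies, the length tolerance and the promoters shown were chosen after values were seen. Members named in the text had a ratio of 1.5-fold or more to the control with an interval that left out 1, were listed at 0, were among the 2 most abundant of their class, or are known to act on MyoD, MEF2 or muscle promoters. Others are named as the members of a count, or were singled out after their values were seen (Dnmt3b, Hdac9, Tet1, Setd1a, Setd2, Ezh1, Prmt7, Sirt5 and Kdm3b). Scripts ran in Python 3.11.15 (scipy 1.17.1, pandas 2.3.3, numpy 2.4.6, and matplotlib 3.10.9 for plots). The result for 1 gene is not reported here.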

Additional observations from a re-analysis of the deposited data

How the results depend on the processing

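With 1 RPKM added and under both other scalings, the ratios of the 62 members compared kept their direction in all 558 values but 3, each with upper quartiles made equal and near 1, which were Crebbp (0.988) and Hdac11 (0.980) for overexpression over knockdown and Setd6 (0.994) for overexpression over control. Members whose interval lay above 1 with overexpression numbered 6 as deposited, 5 with the median of all genes set to 0 and 4 with upper quartiles made equal, and those below 1 with overexpression 6, 6 and 9. Those below 1 with knockdown numbered 6, 4 and 4. Reads at the smallest fitting length ended the call of Setd2. Counts at 2-fold are small and moved. The 1 member higher with overexpression became 0 at a mean of at least 5 RPKM, with 0.5 or 1 RPKM added and when an interval that leaves out 1 was also required. The 3 members lower with knockdown became 0 at a mean of at least 5 RPKM, 1 with 0.5 RPKM added and 0 with 1 RPKM added. With no filter on low values, 1 member was lower with overexpression, 1 was higher with knockdown, and between overexpression and knockdown 1 was higher and 2 were lower. Unlike the counts at the main filter, these leave out a gene at 0 in 1 library of a pair, which was Kdm4d against the control. At 1.5-fold, 5 were higher and 5 lower with overexpression, 2 higher and 5 lower with knockdown, and 8 higher and 4 lower with overexpression over knockdown. The writers' median log2 ratio with overexpression was -0.23 without members that have a copy, their median with knockdown 0.042 without arginine methyltransferases, and the erasers' median with overexpression 0.0083 at a mean of at least 5 RPKM. The other 54 medians moved by under 0.1. No paired analysis was possible because each condition had 1 library, and no library could be left out. Depth limits what can be seen, at a median of 41 reads per member with knockdown.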
